A study of Mus musculus with 6 samples.

Results

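Serpins are a family of proteins that share one fold. Most of them trap a serine protease by offering it an exposed loop as bait. The protease cuts the loop, the inhibitor snaps into a new shape, and the protease stays bound to it in an inactive state. Some members have lost this action and carry hormones or help other proteins fold. Secreted serpins control clotting, fibrinolysis, complement and the proteases of leukocytes, and the members of clade B act mostly inside cells.

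The genes described here are those whose symbol starts with Serpin and which at least 1 probe set names alone. They were found by name in the array's annotation, without use of the measured values. There were 56 such probe sets for 40 genes, of 45101 probe sets on the array and 18193 genes named alone by at least 1 of them. A further 3 probe sets name several serpin paralogs and are given separately. Of 63 protein-coding genes with a Serpin symbol in the RefSeq table, 24 had no probe set of their own by this rule and are not analysed here, among them Serpine2, Serpina3g, Serpina3k and Serpina1a.

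The carotid body senses oxygen in arterial blood and lies where the common carotid divides. RNA was taken from carotid bodies of male, untreated 28-day-old mice of 2 inbred strains, A/J and DBA/2J. Each of the 3 A/J pools held 38 to 42 carotid bodies from 19 to 21 mice, and each of the 3 DBA/2J pools held 36 to 38 from 18 or 19 mice. Each pool was hybridised to 1 Affymetrix Mouse 430 2.0 array. The question was how the strains differ in gene expression in this organ. Values are signals in arbitrary units, and a probe set's signal is comparable between arrays but not with that of another probe set. With 3 arrays per strain, the number of arrays limits the precision, and the error measured is that between pools of mice.

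The labelled tissue was borne out by its markers. All 19 type I cell markers that were measured were bright enough to be tested, including Th, which makes catecholamines, with signals of 2760.1 to 5427.9 for A/J and 5535.4 to 8415.8 for DBA/2J. Other tissue was also present and differed by strain. The summed signal of 20 skeletal muscle genes lay between 59673 and 156806 on the A/J arrays and between 2330 and 4886 on the DBA/2J arrays, and that of 19 type I cell markers between 55121 and 62179 and between 101283 and 106697. DBA/2J array 2 stood apart more than the others. On it, 311 of 27022 tested probe sets were below the lowest of the other 5 arrays by a factor of over 2, against 73 to 161 on the others. Every log2 difference is the DBA/2J mean of log2(signal + 16) less that of A/J, and a gene is called where its limma p, adjusted over all tested probe sets, is at most 0.05.

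The promoters of the Serpina1 genes, which encode alpha-1-antitrypsin, are shown because these paralogs carry the largest difference in the family and yet resemble each other closely in sequence. Alpha-1-antitrypsin is the main inhibitor of neutrophil elastase in plasma, is made mostly in the liver, and in mice is encoded by several tandem copies whose number is known to vary between strains. The sequences are 300 bases long, from 250 before to 50 after the start site, on the minus strand of RefSeq build GRCm38.p6, which is the C57BL/6J genome and not that of either strain studied. Capitals mark the 6 bases GTTAAT, one arm of the palindrome bound by the liver factor HNF1, searched on both strands with no other motif. Serpina1b lies at chr12:103738140-103738439 and Serpina1c at chr12:103904901-103905200.
Serpina1b: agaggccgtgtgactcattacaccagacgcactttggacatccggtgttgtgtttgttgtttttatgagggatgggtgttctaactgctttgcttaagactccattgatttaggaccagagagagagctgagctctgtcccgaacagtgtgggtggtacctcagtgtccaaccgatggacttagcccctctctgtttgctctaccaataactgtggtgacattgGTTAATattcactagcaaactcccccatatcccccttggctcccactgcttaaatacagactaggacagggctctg
Serpina1c: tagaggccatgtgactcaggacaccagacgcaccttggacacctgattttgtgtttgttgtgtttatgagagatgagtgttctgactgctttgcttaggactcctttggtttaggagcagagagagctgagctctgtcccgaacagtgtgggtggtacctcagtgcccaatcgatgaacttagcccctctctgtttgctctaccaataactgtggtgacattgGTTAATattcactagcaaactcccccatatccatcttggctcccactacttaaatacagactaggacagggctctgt

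The Serpina1b and Serpina1c windows were 91.4% identical in a global alignment that counts gap positions as differences. Serpina1b was 88.9% identical to Serpina1a and 86.9% to Serpina1d. Against Serpina1e the figure was 69.3%, with only 4 mismatches, since that window is shifted and 104 positions fell in gaps. The divergent member Serpina1f was 40.9% identical to Serpina1b. The motif was found in 5 of the 6 windows, all but that of Serpina1f, and in 7.1% of all 32851 promoters in the table. The 2 strongly similar genes printed above share this motif in the reference genome. Whether either strain carries it, and its part in the differences described next, was not tested. Those differences were of opposite sign, and only that of Serpina1b was called.

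Serpina1b was the only serpin gene called, and it was far higher in DBA/2J. Its probe set 1418282_x_at, the one with the higher mean, read 445.7, 245.6 and 336.8 in the A/J pools and 4052.7, 4894.9 and 2784.9 in the DBA/2J pools, in the order of array 1, 2 and 3 used throughout. The groups did not come near each other. Means were 343 ± 100 and 3911 ± 1062 (SD, n = 3 arrays), an 11-fold difference on the scale with 16 added (log2 difference 3.45, SE 0.28, limma adjusted p = 0.000351). The other probe set, 1451513_x_at, read 210.1, 213.1 and 264.6 in A/J and 3788.4, 4492.6 and 2720.8 in DBA/2J. It gave a 14.8-fold difference (log2 difference 3.89, SE 0.23, limma adjusted p = 0.000114). Both probe sets ranked the DBA/2J arrays in the same order, with array 2 highest and array 3 lowest. They name the same gene and were read on the same arrays, so this is not independent support. Without each array in turn the first probe set stayed between 3.24 and 3.68 and was called every time.

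Both Serpina1b probe sets carry the suffix _x_at, which the array's maker gives to sets with some probes that can match other sequences. The share of their signal that comes from other Serpina1 copies was not tested. In pooled tissue, less RNA per cell and fewer cells that make it cannot be told apart, for this gene and for every other below. Whether sequence differences between the strains under the probes change a signal was not tested either, for any gene.

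Serpina1c went the other way but did not pass the test. Its probe set read 542.9, 764.2 and 694.8 in A/J and 399.8, 435.0 and 347.2 in DBA/2J. The lowest A/J value stood above the highest DBA/2J value. The log2 difference was -0.73 (95% interval -1.20 to -0.26, limma unadjusted p = 0.00654, adjusted p = 0.114). The probe set that names Serpina1e, Serpina1c and Serpina1b together read only 5.0 to 8.8 (A/J) and 9.8 to 16.4 (DBA/2J), and the one for Serpina1d and Serpina1a read 1.2 to 2.5 and 0.4 to 5.4. Neither was bright enough to be tested, the limit being a signal of about 114. At signals this low, with 16 added, little can be read from their differences. The first of them names Serpina1b too, yet it stayed dim in DBA/2J, where the 2 Serpina1b probe sets read 2720.8 to 4894.9. The reason for this was not tested. Serpina1f was also dim, with 17.4 to 33.6 (A/J) and 26.1 to 43.4 (DBA/2J).

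Markers of hepatocytes, the best known source of alpha-1-antitrypsin, were not called with Serpina1b. Of 16 listed genes, 7 were bright enough to be tested and 0 were called by limma, with a median log2 difference of -0.27; at an unadjusted p of 0.05, 0 were higher and 1 was lower. Summed signals were 2700 to 7802 for A/J arrays and 3646 to 6458 for DBA/2J arrays, of which Cyp2e1, also expressed outside the liver, made up 1478.2 to 6285.4 and 2567.8 to 5049.4. Among the 7 tested, differences ran from -0.79 for Cps1 to 0.39 for Tdo2. Of the 9 dim ones, Ahsg had a log2 difference of 1.17 without a filter (means of 38.6 and 95.1, limma unadjusted p = 0.0463). Ttr and Tat had -1.19 and -1.11 (limma unadjusted p = 0.0086 and 0.00811), and 0 of these 9 were called. The fibrinogen gene Fgb was near 0 on every array, between 4.5 and 7.2, and Apoa1 read 8.7 to 40.8. Albumin, Alb, read 119.6 to 160.6 (A/J) and 93.9 to 121.3 (DBA/2J). Of the other lists, type I cell markers rose (10 of 19 tested, 0 fell) and skeletal muscle markers fell (18 of 19 tested, 0 rose). Of 11 tested adipocyte markers 3 fell, and 8 were lower at an unadjusted limma p of 0.05. Of 12 macrophage markers 0 were called by limma, with 1 higher and 2 lower at that unadjusted p. Of 6 tested salivary and thyroid markers 1 rose and 1 fell. The 10 measured genes of that list summed to 5177 to 13184 (A/J) and 1866 to 3181 (DBA/2J). Of 10 type II and Schwann cell markers 0 rose and 1 fell, with 5 lower at that unadjusted p. Of 12 endothelium markers 1 rose and 0 fell. Of all 13006 genes tested, 3.77% were called in either direction. No share of all genes at an unadjusted p of 0.05 is given, here or for the lists below. Counts at that p therefore have no background beside them. The part of these tissue differences in the Serpina1b result was not tested.

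**Figure D1:**
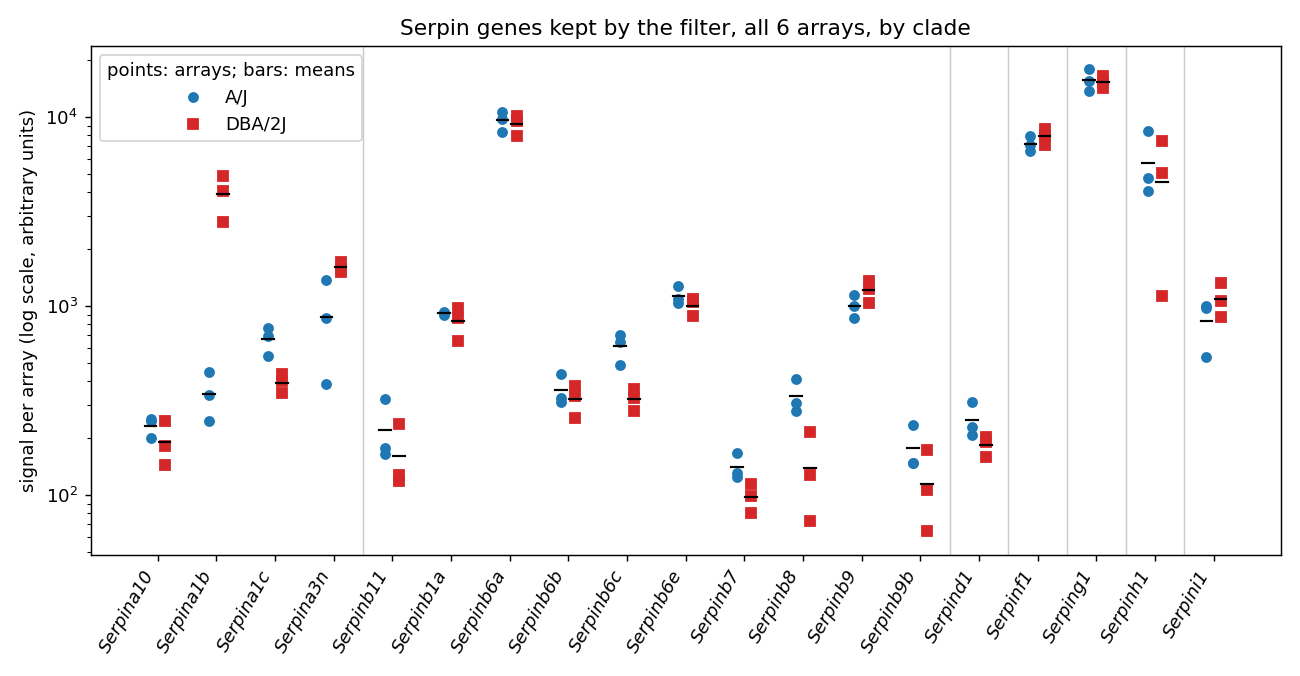
Signal on each array, on a log axis, for the 19 Serpin genes bright enough to be tested, ordered by clade, with blue circles for A/J, red squares for DBA/2J and bars for the means of 3 arrays. The Serpina1b points of the strains lie far apart (343 and 3911 on average), while those of most other genes overlap or lie close. Levels should not be compared between genes.

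Read against all genes, a single call in this family is close to the background. Of the 40 genes, 19 passed the filter on dim probe sets and 21 did not. Of the 19 tested, 1 was called higher and 0 lower, or 5.26%, where 3.77% of all 13006 genes tested were called in either direction. By probe set, 2 of 26 were called higher and 0 lower, where 1.86% of all probe sets tested were called higher and 1.41% lower. The arrays of the strains did not overlap for 7 of the 19 genes, or 36.8%, against 22.7% of all genes. Under the rule the series states, at least 6 of 9 pairwise comparisons of 1.5-fold with an unadjusted p of 0.05, 5 of the 19 passed, or 26.3%, against 10.7% of all genes. These were Serpina1b and Serpina3n, both higher, and Serpina1c, Serpinb6c and Serpinb8, all lower, the same 5 that had an unadjusted limma p of at most 0.05. The test behind that rule is not stated in the labels, so the limma p before adjustment took its place. Leaving out DBA/2J array 2 raised the count of called genes from 1 to 3, the added ones being Serpinb6c and Serpinb8.

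Of the 19 genes, 14 had a negative difference, or 73.7%, where 47% of all 13006 genes tested had one. The members' median was -0.17 against 0.03 for all genes tested. With quantile normalization or array weights 12 were negative, with medians of -0.21 and -0.17. The median absolute difference was 0.40, against 0.24 for all genes. For 9 of the 19 the 95% interval of the difference lay within a factor of 2 either way, and for the other 10 it reached further.

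**Figure D2:**
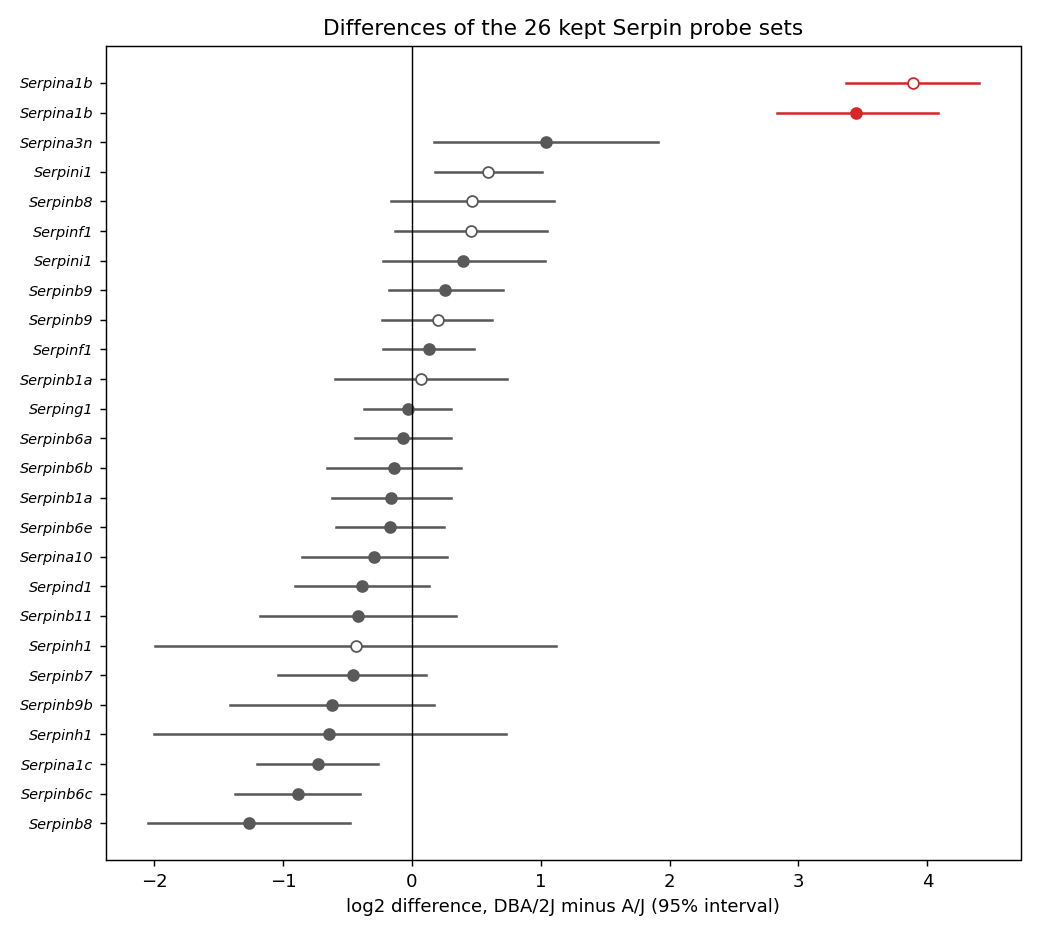
Log2 difference, DBA/2J minus A/J, with its 95% interval for each of the 26 tested Serpin probe sets, ordered by size; filled circles stand for the gene, open circles are its other probe sets, and red marks the called ones. The 2 probe sets of Serpina1b, at 3.45 and 3.89, stand clear of the rest, and Serpinb8 appears at both -1.26 and 0.47.

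The Serpina genes on chromosome 12 form 1 block of 25 neighbours in RefSeq order. Only 4 of them were tested, and of these Serpina1b alone was called. The rest had no probe set of their own or were too dim, so they could not be called. At one end, Serpina10, the inhibitor that acts with protein Z, read 199.6 to 253.6 (A/J) and 145.0 to 247.7 (DBA/2J), and its groups overlapped (log2 difference -0.29). At the far end lies Serpina3n, a mouse relative of antichymotrypsin that is induced in inflammation and inhibits granzyme B. It read 1368.8, 385.6 and 862.9 in A/J and 1513.8, 1579.3 and 1721.3 in DBA/2J. The DBA/2J arrays agreed closely and all lay above A/J, whose own values were widely spread, with array 2 lowest. The log2 difference of 1.04 (SE 0.39) did not pass (limma unadjusted p = 0.0243, adjusted p = 0.227), and it was 0.55 without A/J array 2 and 1.45 without A/J array 1.

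The other clade A genes were all too dim to be tested. These 10 included Serpina5, the protein C inhibitor, at 3.2 to 45.1 against 9.0 to 18.8 for A/J and DBA/2J. Serpina6, the corticosteroid carrier of plasma, read 39.8 to 112.4 and 35.7 to 99.4. The strains overlapped for both. Serpina3a read 51.0 to 66.7 and 50.2 to 59.4, and Serpina3i 5.1 to 15.7 and 6.2 to 19.9. No detection calls were used here, so whether such signals lie above background is unknown.

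No tested gene next to the block was called. Of the 10 nearest genes on each side, 18 had a probe set and 13 were bright enough to be tested. By the adjusted limma p, 0 of the 13 were called higher and 0 lower, and 4 had an unadjusted p of at most 0.05. These were Otub2, with a log2 difference of 0.74, and Ifi27l2a, Ifi27 and Tcl1b3, with -0.99, -0.66 and -0.63. The share of all genes at that unadjusted p is not given here.

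**Figure D3:**
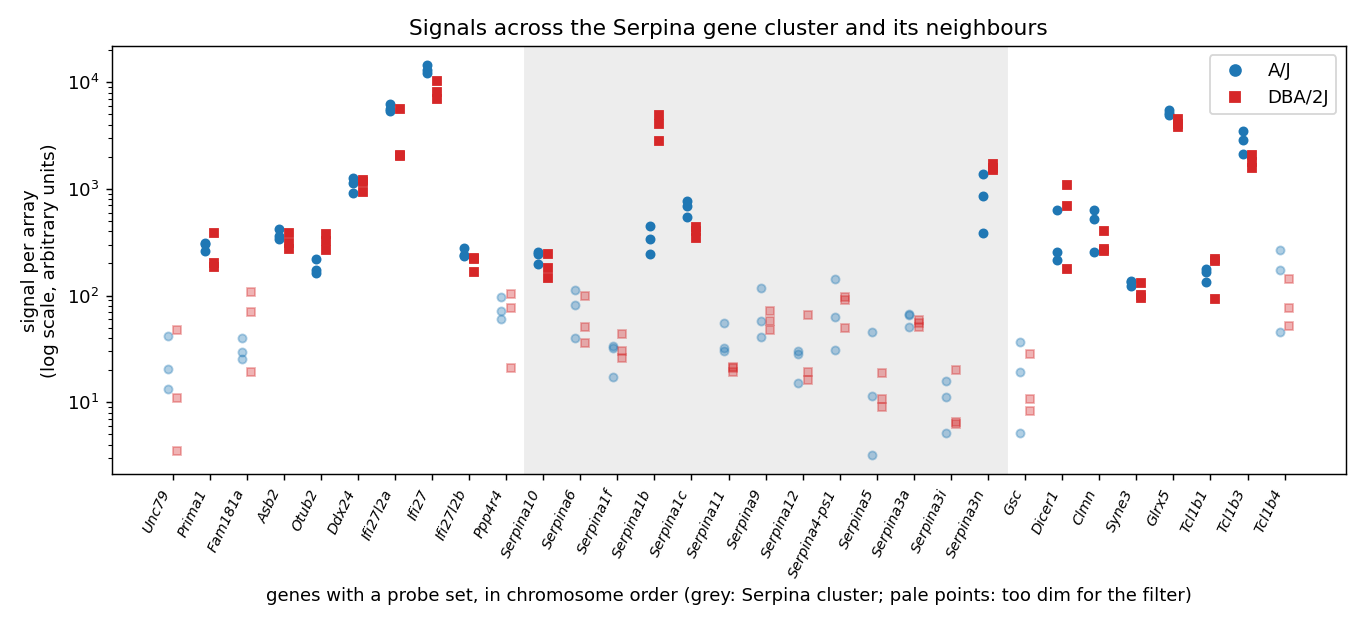
Signal on each array, on a log axis, for genes with a probe set in and around the Serpina block, in chromosome order, with the block shaded, blue circles for A/J, red squares for DBA/2J and pale points for genes too dim to be tested. Serpina1b alone shows strains apart by an order of magnitude, while its neighbour in the plot, Serpina1c, is lower in DBA/2J (667 and 394 on average).

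Serpins of complement, clotting and fibrinolysis showed no called difference. Serping1, the C1 inhibitor that restrains complement and the contact system, read 17952.4, 13816.1 and 15579.5 in A/J and 16591.5, 15304.1 and 14213.8 in DBA/2J. The strains overlapped fully, and the log2 difference was -0.03 (95% interval -0.37 to 0.30, limma adjusted p = 0.951). Serpind1, heparin cofactor II, which inhibits thrombin, read 310.0, 230.1 and 207.1 in A/J and 159.9, 191.0 and 202.0 in DBA/2J. All its DBA/2J values were lower, yet by little (log2 difference -0.39, SE 0.23, limma adjusted p = 0.496). Serpinc1, antithrombin, was dim at 43.3 to 74.3 and 55.1 to 111.7. Serpinf2, the plasmin inhibitor alpha-2-antiplasmin, was dim too, at 44.2 to 146.2 and 37.1 to 173.1.

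Serpinf1 encodes pigment epithelium-derived factor, a secreted serpin that restrains vessel growth and does not inhibit proteases. It read 7157.0, 6623.4 and 7932.1 in A/J and 8673.6, 8049.5 and 7090.5 in DBA/2J. The ranges overlapped, with a log2 difference of 0.13 (95% interval -0.22 to 0.48). Its other probe set gave 0.46 (95% interval -0.13 to 1.05) and was not called either.

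Serpini1, neuroserpin, is a secreted inhibitor of tissue plasminogen activator made by neurons and neuroendocrine cells. Its brightest probe set read 999.6, 541.0 and 974.8 in A/J and 879.7, 1327.5 and 1058.8 in DBA/2J. The strains overlapped there (log2 difference 0.40, SE 0.28, limma adjusted p = 0.575). The next probe set read 675.2, 587.4 and 751.5 in A/J and 1070.2, 979.1 and 997.6 in DBA/2J. Here all DBA/2J values were higher, with a log2 difference of 0.59 (SE 0.18, limma unadjusted p = 0.0105, adjusted p = 0.148). Its last, dim probe set gave -0.16. Type I cells are neuroendocrine, and 10 of 19 of their markers rose; the part of this in the neuroserpin values was not tested. Plat, its target protease, was looked at after its values were seen. It read 2098.6, 2257.3 and 3793.9 in A/J and 1347.2, 1542.1 and 1462.4 in DBA/2J, lower in each DBA/2J pool but not called (log2 difference -0.85, limma adjusted p = 0.112). The related Serpini2 was dim, at 27.3 to 38.3 for A/J against 59.3 to 69.7 for DBA/2J. Its arrays did not overlap, but without a filter its log2 difference of 0.71 had an adjusted limma p of 0.307.

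Serpinh1, also called HSP47, is the chaperone that binds procollagen in the endoplasmic reticulum. It varied more within DBA/2J than between the strains. Its probe set 1456733_x_at read 4071.8, 8423.2 and 4750.9 in A/J and 5077.8, 1126.5 and 7477.7 in DBA/2J, and 1450843_a_at read 2123.1, 4231.5 and 3256.5 in A/J and 3650.7, 591.3 and 5393.9 in DBA/2J. DBA/2J array 2 was the lowest array on both by a wide margin. The log2 difference was -0.64 (SE 0.60, limma adjusted p = 0.706) with all arrays and 0.17 without DBA/2J array 2, so these arrays give it no settled direction. Of 20 tested genes that encode fibrillar or basement membrane collagens and the enzymes that fold them, 0 were called by the adjusted limma test and 1 had an unadjusted p of at most 0.05, and their median log2 difference was -0.10. Of these, 6 were lowest on DBA/2J array 2 and 6 on DBA/2J array 3. P4ha1, a prolyl hydroxylase subunit picked out after its values were seen, read 130.4 on DBA/2J array 2 and 541.3 to 1119.7 on the others.

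**Figure D4:**
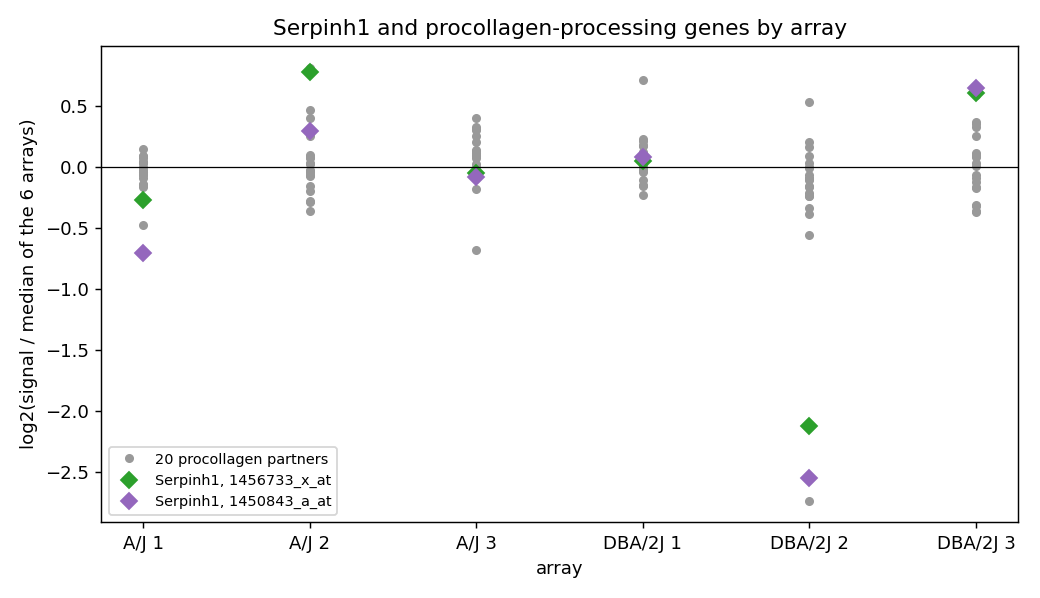
Signal of each array relative to the median of all 6 arrays, on a log2 scale, for the 2 probe sets of Serpinh1 (diamonds) and 20 tested procollagen-processing genes (grey circles). Both Serpinh1 probe sets lie far below the other arrays on DBA/2J array 2 (1126.5 and 591.3), where 1 grey point, P4ha1, accompanies them.

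In clade B, 0 of 10 tested genes were called by the adjusted limma test, and Serpinb6c and Serpinb8 had an unadjusted p of at most 0.05. Of the 10, 9 had a negative difference (8 with quantile normalization or array weights), where 47% of all genes tested had one. The sign was not settled for several of the 9, since Serpinb8 and Serpinb1a each had another probe set with a positive difference and Serpinb6a turned with the normalization. Serpinb6c, one of several mouse relatives of the intracellular inhibitor SERPINB6, read 644.4, 705.0 and 489.8 in A/J and 325.9, 364.8 and 277.7 in DBA/2J. The strains were separate, and the log2 difference was -0.88 (95% interval -1.37 to -0.40, limma adjusted p = 0.0663). Without DBA/2J array 2 it was -0.97 with an adjusted limma p of 0.0494. The suffix _s_at marks this probe set as one that can read several related transcripts.

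Serpinb6a, the broadly expressed member of the same subfamily, did not follow. It read 9813.0, 10669.6 and 8386.1 in A/J and 10102.2, 9531.8 and 7905.8 in DBA/2J. The values overlapped, the log2 difference was -0.07 (95% interval -0.44 to 0.30), and it turned to 0.08 with quantile normalization. Serpinb6b gave -0.14 and Serpinb6e -0.17, both with overlapping arrays.

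Serpinb8, an intracellular serpin that can inhibit furin, gave different answers by probe set. The brighter one read 277.8, 309.0 and 413.9 in A/J and 127.8, 216.6 and 73.1 in DBA/2J. All DBA/2J values were lower (log2 difference -1.26, SE 0.35, limma adjusted p = 0.101), and without DBA/2J array 2 it was -1.61 with an adjusted limma p of 0.0168. The other read 122.5, 127.0 and 196.9 in A/J and 168.1, 277.5 and 191.8 in DBA/2J. That set overlapped between strains and leaned higher in DBA/2J (log2 difference 0.47, SE 0.28), so the gene has no settled direction.

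The leukocyte serpins of clade B showed small differences that were not called. Serpinb1a, which inhibits neutrophil elastase and cathepsin G, read 894.8, 929.7 and 922.3 in A/J and 864.4, 974.1 and 651.7 in DBA/2J. Its log2 difference was -0.16 (95% interval -0.62 to 0.30) and that of its other probe set 0.07. Serpinb9, which protects cells from granzyme B, read 863.5, 1145.1 and 1007.1 in A/J and 1365.1, 1035.4 and 1230.2 in DBA/2J. The strains overlapped (log2 difference 0.26, 95% interval -0.18 to 0.71), and its other probe set gave 0.20. Summed signals of 12 macrophage markers were 29382 to 31408 and 20353 to 31001, and those of 9 lymphocyte markers 851 to 971 and 804 to 1204, A/J first. Serpinb9b had a difference of -0.62 with overlapping arrays, Serpinb11 had -0.42, and Serpinb7 had -0.46 with arrays that did not overlap; their limma adjusted p were 0.467, 0.646 and 0.455.

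Serpinb2, or plasminogen activator inhibitor 2, was too dim to be tested. It read 144.1, 88.5 and 122.9 in A/J and 32.8, 46.4 and 31.7 in DBA/2J. Every A/J value exceeded every DBA/2J value, and without a filter the log2 difference was -1.33 (SE 0.30) with an adjusted limma p of 0.0794. Squamous epithelium, where several clade B serpins are expressed, gave 0 calls among 5 tested markers in limma (0 at an unadjusted p of 0.05), with summed signals of 2733 to 3120 and 2737 to 3106. The remaining dim members of clade B, including Serpinb5 (maspin) with 4 probe sets, gave no call without a filter either. Over the family, 30 probe sets were too dim, with signals from 0.8 to 173.1; without a filter 3 of them had an unadjusted p under 0.05 and 0 an adjusted p under 0.05. The probe set shared by Serpinb9e, Serpinb9f, Serpinb9g and Serpinb9h was tested and read 118.5 to 239.9 (A/J) and 110.8 to 137.5 (DBA/2J), with a log2 difference of -0.33 (limma adjusted p = 0.676).

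Among the granule proteases of leukocytes, not all of which are serpin targets, the called genes were a pair of mast cell chymases, both higher in DBA/2J. Of 9 tested granule proteases of leukocytes, 2 rose and 0 fell (22.2%, where 3.77% of all genes were called), with a median log2 difference of 0.73. The list was chosen with earlier results of these data known, so these shares do not test for an excess. Gzma, among the 9, read 48.6 to 85.3 (A/J) and 112.1 to 421.7 (DBA/2J), so it passed the filter through its DBA/2J values. Mcpt2, a mast cell chymase, read 211.6, 105.5 and 241.8 in A/J and 6813.5, 5869.5 and 4545.5 in DBA/2J (log2 difference 4.88, limma adjusted p = 0.00012). Cma1, another chymase, read 1212.7 to 1602.5 and 2789.5 to 4776.6 (log2 difference 1.44, limma adjusted p = 0.014). Neutrophil elastase, Elane, the main target of alpha-1-antitrypsin, was dim, with 63.4 to 77.4 against 47.2 to 165.9 for A/J and DBA/2J. Of the 6 dim proteases of this list, 3 had an unadjusted p of at most 0.05 without a filter, and they are named after their values were seen. Cathepsin G, Ctsg, read 18.9 to 76.0 (A/J) and 159.1 to 487.6 (DBA/2J), with a log2 difference of 2.29 (limma adjusted p = 0.0589). Granzyme B, Gzmb, had a log2 difference of 1.05 (limma adjusted p = 0.312). Proteinase 3, Prtn3, a neutrophil protease, went the other way, at 68.3 to 142.1 for A/J against 14.6 to 42.1 for DBA/2J (log2 difference -1.27, limma adjusted p = 0.174). Of 11 mast cell markers, 5 were higher and 1 lower at an unadjusted limma p of 0.05. Cma1, Mcpt4, Tpsb2 and Cpa3 are themselves on this protease list, and Cma1 was the one called higher. The summed signal of these 4 was 3768 to 4202 (A/J) and 6365 to 10176 (DBA/2J). The other 7 gave 0 calls higher and 1 lower in limma, Hdc, which makes histamine (log2 difference -1.70, limma adjusted p = 0.0366). Their summed signal was 2160 to 2424 (A/J) and 2496 to 2694 (DBA/2J). Among them, the receptor genes Kit and Ms4a2 had differences of 0.00 and -0.02, and Fcer1a had 0.68. The part of mast cell number in the chymase values was not tested.

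Genes listed with protease inhibitors of other families changed in both directions. Inhibition of a protease by each listed gene was not tested. Of 19 tested, 2 rose, 2 fell and 15 did not pass (21.1% called, where 3.77% of all genes were), with a median log2 difference of -0.13. This list too was chosen with earlier results known, so these shares do not test for an excess. Spint1, a Kunitz inhibitor of membrane serine proteases, read 151.2, 216.0 and 159.1 in A/J and 827.2, 818.6 and 739.6 in DBA/2J (log2 difference 2.10, limma adjusted p = 0.000999). A2m, alpha-2-macroglobulin, which traps proteases of every class, read 426.5, 338.7 and 357.4 in A/J and 86.2, 78.4 and 55.1 in DBA/2J (log2 difference -2.14, limma adjusted p = 0.00181). The groups were far apart for both genes. Kazald1, a Kazal-domain protein, rose by 1.09 and Itih5, which binds hyaluronan, fell by 0.74, the latter with limma adjusted p = 0.0499. Of the 7 genes named from these lists, Mcpt2, Spint1 and A2m were called without each array in turn, and Cma1, Kazald1, Cfp and Itih5 were not. With A/J array 2 as the only A/J array, Mcpt2 was called (limma adjusted p = 0.013) and Spint1 and A2m were not (0.0921 and 0.178).

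The other lists, of complement, proteases and serpin partners, showed few calls. Of 12 tested complement genes 0 rose and 1 fell, Cfp, or properdin, the stabiliser of the alternative pathway, with a log2 difference of -0.89 (limma adjusted p = 0.0457) and -0.20 on another probe set. By the adjusted limma test, 0 were called among 5 clotting and fibrinolysis proteases, 17 protease receptors and serpin cofactors, 13 lysosomal cathepsins and 4 membrane serine proteases. The medians of these lists were -0.06, -0.13, 0.03 and -0.42, and 1, 3, 0 and 2 of their genes, all lower, had an unadjusted p of at most 0.05. Lrp1, the receptor that clears serpin and protease complexes, read 1747.6 to 2670.1 against 1854.9 to 3121.1, with overlapping strains (log2 difference 0.17).

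**Figure D5:**
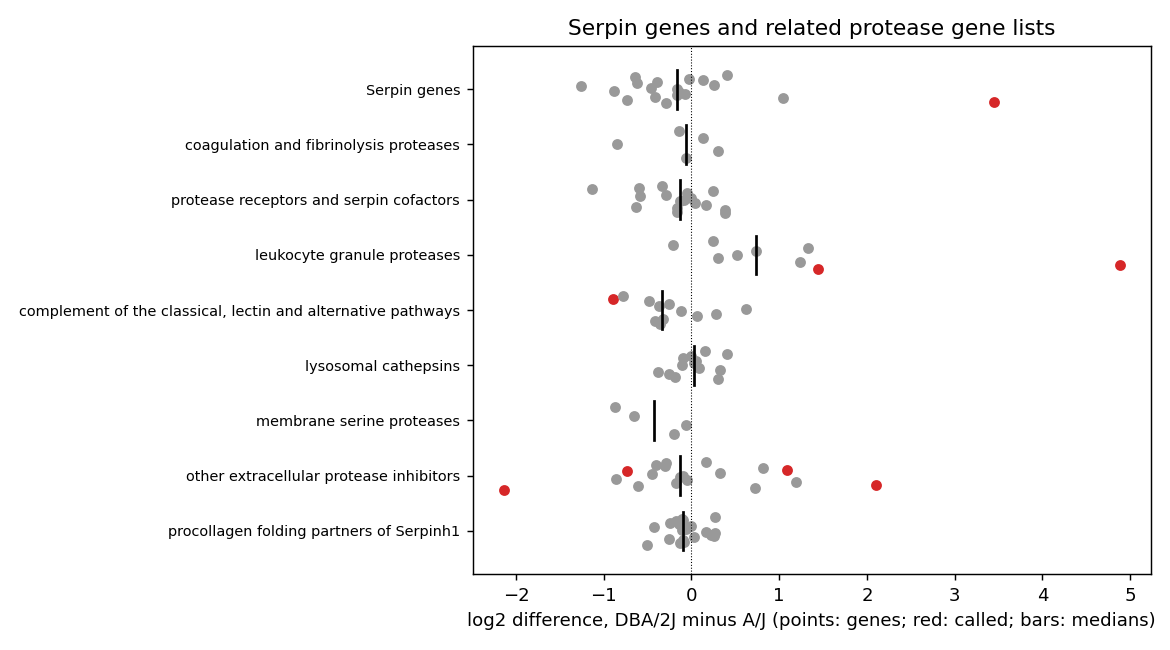
Log2 difference, DBA/2J minus A/J, of each tested gene in the Serpin family and in 8 lists of proteases, inhibitors and partners; red points are called and black bars are list medians. Calls sit at Serpina1b (3.45), Mcpt2 (4.88) and Cma1 among granule proteases, and Cfp in complement. The list of other inhibitors holds calls at Spint1, Kazald1, Itih5 and A2m.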

How the data were processed

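Total RNA of 6 carotid body pools was measured on Affymetrix arrays, per the labels. The deposited values are linear intensity signals already scaled by the authors: the mean after trimming 2% at each end is 500.0 on every array, and medians ran from 163.6 to 183. The sources used here do not name the software. Gene names came from the platform annotation held by GEO (34945 name 1 gene, 932 several, 9160 none here), updated through RefSeq (GRCm38.p6).

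After removal of 64 control probe sets, log2(signal + 16) was taken and the dimmest probe sets were dropped, which left 60% of them (27022). DBA/2J was compared with A/J in limma 3.58.1 (R 4.3.3; lmFit, eBayes with intensity trend, two-sided, no covariate), with Benjamini-Hochberg adjustment over all kept probe sets at 0.05. The brightest probe set stood for a gene. The procedure was tested on simulated data. Promoters were aligned with Biopython 1.88 and figures drawn with matplotlib 3.10.9.

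Named genes are serpins that were called, separate between strains with an unadjusted p of at most 0.05, among the 8 brightest, Serpina1 or Serpina3 paralogs, or on a fixed list, and up to 4 called members of each other list. Members and lists were chosen with earlier results of these data known. Alternatives were other normalizations, pseudocounts, filters and variance models, array weights, the series' stated rule and means over a gene's probe sets. Others were arrays left out and a block for numbers shared in some array titles.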

Additional observations from a re-analysis of the deposited data

How the results depend on the processing

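Of 278 values of named serpin genes under the alternatives, 254 kept their direction and their side of the threshold, 1 lost its call, 10 gained one and 13 turned. Some array titles share a number across strains, A/J array 2 with DBA/2J array 2 and A/J array 3 with DBA/2J array 3. Serpina1b lost its call only when these numbers formed a fixed replicate block (log2 difference 3.61, limma adjusted p = 0.0731). That estimate rests on those 2 pairs. With 2 or more arrays in each strain, its adjusted limma p was at most 0.0288 under every other alternative that gives one. Counts of called serpin probe sets and genes, 2 and 1, became 6 and 4 with array weights, 6 and 5 under the series' stated rule, and 0 and 0 with the fixed replicate block, which leaves a single residual degree of freedom and where 6 probe sets and 5 genes had an unadjusted limma p of at most 0.05. They ranged from 2 to 4 and from 1 to 3 with one array left out. With a gene's probe sets averaged, 2 genes were called, the added one being Serpinb6c; fewer features are adjusted for there. With that fixed replicate block Mcpt2, Spint1 and A2m also lost their calls (limma adjusted p = 0.0659, 0.136 and 0.138), and on the arrays with shared numbers alone Spint1 and A2m did (0.0662 and 0.0684). No label says that the title numbers pair the arrays, and the deviations of the 2 same-numbered pairs correlated at -0.26 and 0.0351. The values that turned were few. Serpinb6a stood at 0.08 with quantile normalization and 0.07 with array weights (-0.16 to 0.04 with one array left out), and Serping1 stood at 0.14 and 0.04 under the same settings, 0.15 with A/J array 2 alone, and 0.01 both with the block and on the arrays with shared numbers (-0.12 to 0.06 with one array left out). With one array left out, Serpinb1a ran from -0.28 to 0.00 and Serpinh1 from -1.18 to 0.17; the cause was not tested. Signal over background limits the dim genes, and 3 arrays per strain limit the rest.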
